A study of Homo sapiens with 6 samples.

Results

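The comparison described here set 2 libraries of A375 cells treated with palbociclib against 2 libraries of A375 cells in vehicle, out of 6 libraries in all. A375 is an established human melanoma line. Palbociclib was given at 1 µM for 72 h, and the vehicle group had 0.01% DMSO for the same time; the labels do not give the DMSO content of the treated cultures. The other 2 libraries came from A375 cells after 72 h with 500 nM GSK3326595, which inhibits PRMT5, an arginine methyltransferase, and enter here only through the shared estimate of spread and 1 side comparison. Members were the genes with at least 10 counts in both libraries of either group, which were 16050 of the 28395 gene IDs in each table. Of these, 15017 met the limit in both groups, 416 in DMSO alone and 617 with palbociclib alone. All groups come from 1 cell line, and the labels do not say whether the replicates were separate cultures, so the p-values rest on a spread between libraries that may be only technical.

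Palbociclib inhibits CDK4 and CDK6, the kinases that bind D-type cyclins and phosphorylate the retinoblastoma protein early in the cell cycle. Unphosphorylated retinoblastoma protein holds E2F factors back from the genes of DNA replication, so cells exposed to such inhibitors arrest before S phase. Melanoma cells in this arrest can enlarge and take on features of senescence, among them a larger lysosomal compartment and a changed set of secreted proteins. The question here was which transcripts differ in A375 cells beyond those of the cell cycle itself, by how many reads they have, what type of gene they come from and which family they belong to.

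The DMSO libraries held 17540043 and 19643715 counts, and the palbociclib libraries 19550224 and 20842099. Levels are given as CPM, the count relative to the library total after scaling by TMM, for replicate 1 and then replicate 2. They are not divided by gene length, so levels are compared only within a gene. Among melanoma markers SOX10 was at 164 and 191 CPM in DMSO and 212 and 236 CPM with palbociclib. MITF was at 57.3 and 60.9 against 57.3 and 59.8 CPM. Several pigment genes of the list were near the floor. PMEL was at 1.34 and 1.14 CPM in DMSO and 2.08 and 2.45 CPM with palbociclib. MLANA was at 1.84 and 0.935 against 1.82 and 1.54 CPM, and TYRP1 at 0.501 and 0.312 against 0.659 and 0.624 CPM. DCT and OCA2 did not meet the count limit. The 16 melanocyte and melanoma markers summed to 1292 and 1357 CPM in DMSO and 1113 and 1107 CPM with palbociclib, while TYR was at 0 in these 4 libraries. AXL, called lower, made up most of that sum, and without it the other 15 summed to 458 and 493 CPM in DMSO and 634 and 647 CPM with palbociclib; GPNMB, S100B and SLC45A2 were called higher and SOX9 lower. Of 13 blood cell markers 3 passed the limit, with sums of 97.1 and 89.8 CPM in DMSO and 91.3 and 83.9 CPM with palbociclib, most of it CD68, which was called lower; LYZ, called higher, was at 4.62 and 4.52 CPM in DMSO and 14.04 and 13.6 CPM with palbociclib, and CD3E and MS4A1 were at 0. Of 12 fibroblast and endothelial markers 8 passed, with sums of 36.4 to 51.9 CPM over the 4 libraries, and of 10 epithelial markers 6 passed, with sums of 686 to 792 CPM, most of it KRT18 and KRT8; KRT1 was at 0. The part of cells other than melanoma cells in any result was not tested.

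A large share of the measured transcriptome differed after palbociclib. Most of the calls lay outside the list of cell cycle genes used here, which may not hold all such genes. Calls were made in edgeR's quasi-likelihood test where the p-value, after Benjamini-Hochberg correction over all 16050 genes, was under 0.05. By this rule 6536 genes (40.7%) were called, of which 3197 (19.9%) were higher and 3339 (20.8%) lower. Changes of at least 2-fold were found in 856 of the higher genes (5.33% of those tested) and 780 of the lower genes (4.86%). Both palbociclib libraries lay above both DMSO libraries in 5731 genes (35.7%) and below both in 6072 (37.8%). A list of 471 genes of replication, mitosis, recombination, cyclins and histones held 408 of the lower calls and 7 of the higher, with a median log2 fold change of -1.16. In the other 15579 genes there were 3190 higher and 2931 lower calls, and the median log2 fold change was 0.00. Outside the cell cycle list 854 genes were at least 2-fold higher and 508 at least 2-fold lower; among the 14547 of these genes that met the count limit in both groups, so that the limit did not set the direction, the numbers were 630 and 370. Without palbociclib replicate 2, 4107 genes were called, 2067 higher and 2040 lower. Without palbociclib replicate 1 the counts were 4273, 2109 and 2164, and without DMSO replicate 2 the lower calls were 2177. In bulk RNA, fewer cells that make a transcript and less of it per cell cannot be told apart.

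**Figure D1:**
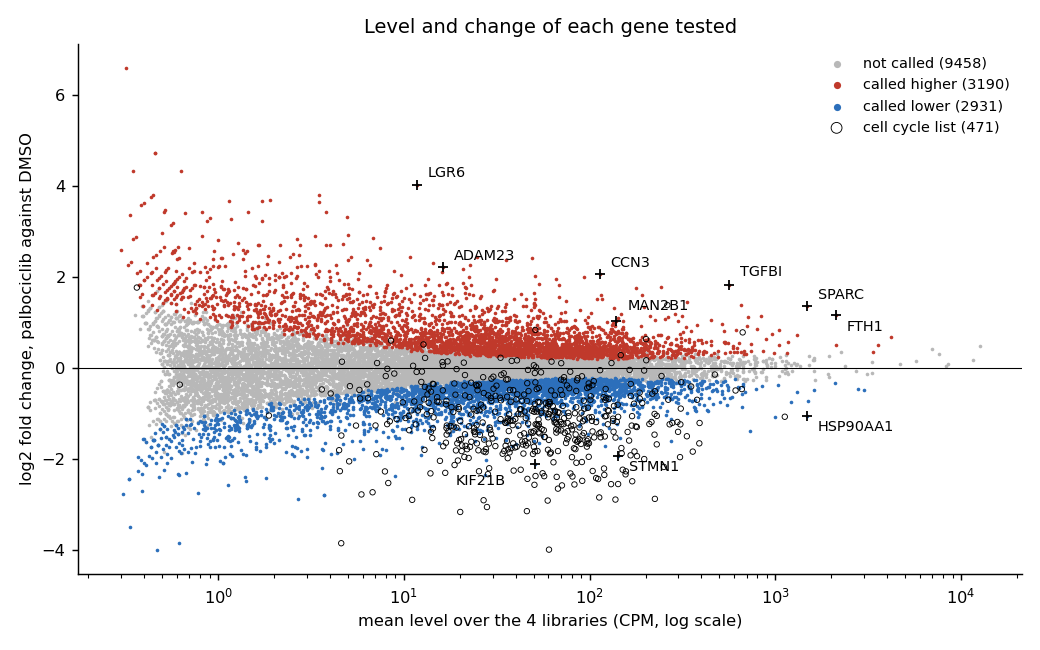
Mean level over the 4 libraries (CPM, log scale) against the log2 fold change of palbociclib over DMSO for each of the 16050 genes tested. Red and blue points are the 3190 and 2931 genes called higher and lower outside the cell cycle list, grey points were not called, open circles are the 471 genes of the cell cycle list, most of them below 0, and crosses mark 10 named genes.

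The share of genes called was lowest under 1 CPM and highest between 100 and 1000 CPM, and the largest fold changes lay among genes with few reads. Genes were put in classes by their mean CPM over the 4 libraries, which does not use the direction of change. Under 1 CPM, 303 of 1444 genes were called (175 higher, 128 lower), and every one of these calls was a change of at least 2-fold. From 1 to 10 CPM 745 genes were higher and 549 lower of 4466, from 10 to 100 CPM 1732 and 2030 of 7800, from 100 to 1000 CPM 534 and 622 of 2276, and from 1000 CPM upward 11 and 10 of 64. The called shares were 20.98%, 28.97%, 48.2%, 50.8% and 32.8% in this order, beside 40.7% over all genes. The median standard error of the log2 fold change fell from 0.451 under 1 CPM to 0.110 between 10 and 100 CPM and 0.0898 between 100 and 1000 CPM. With the smaller error the calls reached smaller changes: of the 1156 calls between 100 and 1000 CPM, 29 were at least 2-fold higher and 77 at least 2-fold lower. Among genes under 1 CPM the limit of 10 counts also acts on the direction, since a gene kept through 1 group alone can hardly be called in the other: 172 of the 175 higher calls were of genes kept through palbociclib alone and 116 of the 128 lower calls of genes kept through DMSO alone. These calls say little about direction, and among the 507 genes of the class kept by both groups 3 were higher and 12 lower.

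Counts in the outer classes depended on single libraries and on the test. Under 1 CPM, 168 and 167 genes were called without DMSO replicate 1 or 2, 133 and 135 without palbociclib replicate 1 or 2, and 78 with DESeq2. From 1 to 10 CPM there were 852 calls when DMSO replicate 2 was left out and 734 and 713 without palbociclib replicate 1 or 2. From 10 to 100 CPM 2473 remained as a count without palbociclib replicate 2. From 1000 CPM upward 12 and 11 genes were called without palbociclib replicate 1 or 2.

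**Figure D2:**
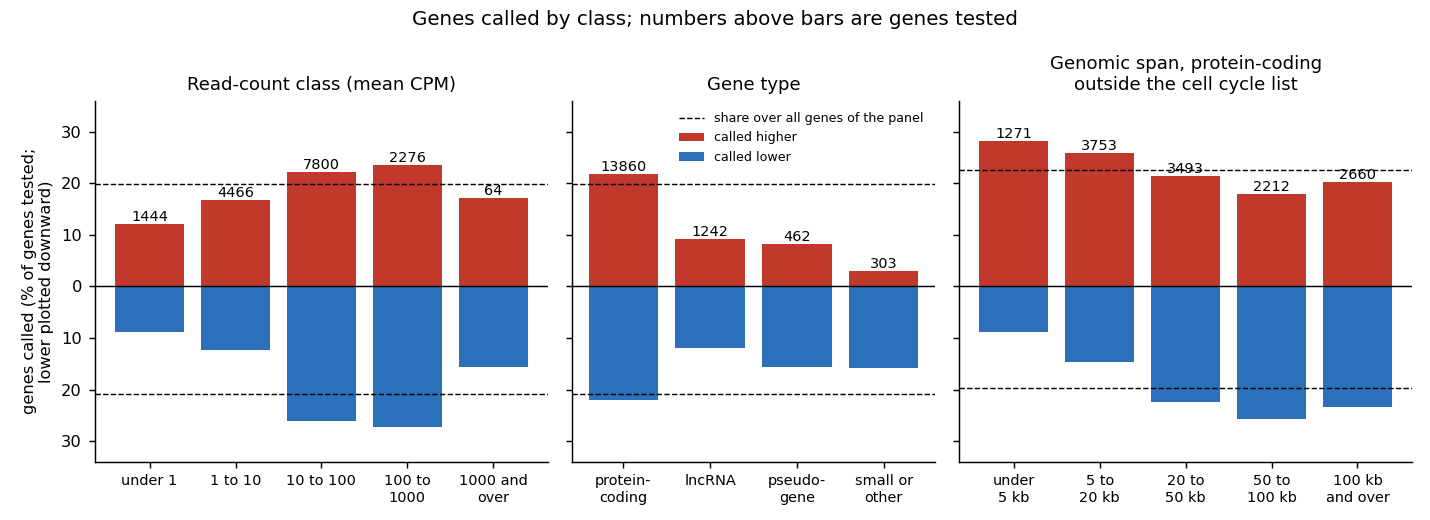
Share of genes called higher (red, upward) and lower (blue, downward) by read-count class, gene type and genomic span, in % of the genes tested in each class, with the number tested above each bar. Dashed lines are the shares over all genes of a panel. Calls were fewest below 1 CPM and in non-coding types, and short protein-coding genes were called higher more often than lower.

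The largest rises among protein-coding genes outside the cell cycle list came from genes that were close to silent in vehicle. LGR6 (Gene ID 59352; chromosome 1, 202193799 to 202319761), a receptor for R-spondins, was at 1.28 and 1.40 CPM in DMSO and 18.9 and 25.3 CPM with palbociclib, a log2 fold change of 4.03 ± 0.219 (SE from the quasi-likelihood F, as below; adjusted p = 1.89e-07). The groups were far apart. TCN1, a carrier of vitamin B12, went from 0.390 and 0.624 to 6.19 and 6.82 CPM. It met the limit of 10 counts through palbociclib alone, so the limit also acts on its direction. PTGS2, which encodes cyclooxygenase-2, went from 0.557 and 0.728 to 4.72 and 9.27 CPM. The actin-like gene ACTBL2 was at 1.17 and 0.624 and then 6.95 and 11 CPM. In PTGS2 and ACTBL2 the palbociclib replicates were themselves well apart, yet both stood above the DMSO libraries. IFITM10, OTOGL and MGAM2 were also among the 8 largest rises of genes with a mean of 2 CPM or more. Their log2 fold changes were 2.92 ± 0.304, 2.90 ± 0.285 and 2.86 ± 0.220.

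The largest falls outside the list, by the same limit of 2 CPM, were smaller on the log2 scale. They also lay mostly in genes with few reads. STMN3, a relative of the microtubule regulator stathmin, fell from 5.96 and 6.97 to 0.710 and 1.15 CPM (-2.78 ± 0.255). KIF21B (Gene ID 23046; chromosome 1, 200969390 to 201023714), a kinesin motor that the cell cycle list does not hold, had more reads and fell from 79.97 and 84.8 to 19.7 and 18.8 CPM (-2.10 ± 0.100, adjusted p = 1.26e-07). In both genes the groups did not overlap. ZNF367, a zinc finger gene, and GNG4, a G protein gamma subunit, had log2 fold changes of -2.34 and -2.02, with replicates close together in both groups. TMEM200B, MBOAT1, an acyltransferase of membrane phospholipids, and RAB39A had log2 fold changes of -2.36, -2.20 and -1.94.

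Between 100 and 1000 CPM the largest rises outside the cell cycle list were in matrix, translation and antigen presentation genes. TGFBI (Gene ID 7045; chromosome 5, 136028988 to 136063818), a secreted matrix protein, was at 260.4 and 232 CPM in DMSO and 860.3 and 899.9 CPM with palbociclib, a log2 fold change of 1.84 ± 0.114 (adjusted p = 3.57e-07). CCN3, a matricellular protein, went from 40.8 and 46.6 to 178 and 188 CPM (2.06 ± 0.151). EEF1A2 (Gene ID 1917; chromosome 20, 63488014 to 63499083), the elongation factor isoform otherwise found in neurons and muscle, rose from 115 and 103 to 387 and 360.3 CPM (1.78 ± 0.0934). Each of these genes had replicates close together and groups far apart. CD74, the invariant chain of MHC class II, was at 76.6 and 85.8 CPM in DMSO and 237 and 315 CPM with palbociclib (1.77 ± 0.148).

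Outside that list the largest falls in the same class were in chromatin and microtubule genes. STMN1 (Gene ID 3925; chromosome 1, 25884179 to 25906880), stathmin itself, which destabilises microtubules, fell from 206 and 244 to 54.1 and 63.9 CPM (-1.93 ± 0.107, adjusted p = 1.96e-07). DEK, a chromatin architectural protein, was at 173 and 198 CPM in DMSO and 57.2 and 57.2 CPM with palbociclib (-1.70 ± 0.0887). NSD2, a histone H3 lysine methyltransferase, and ANP32E, a chaperone of the histone variant H2A.Z, had log2 fold changes of -1.59 and -1.54. In all 4 genes both palbociclib libraries lay far below both DMSO libraries.

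Of 64 genes at 1000 CPM or more, 21 were called and most changes were under 2-fold. SPARC (Gene ID 6678; chromosome 5, 151661096 to 151686915), a matricellular protein of migrating melanoma cells, was at 775 and 883 CPM in DMSO and 1938 and 2313 CPM with palbociclib, a log2 fold change of 1.36 ± 0.145 (adjusted p = 2.17e-05). FTH1, the ferritin heavy chain that stores iron, rose from 1290.4 and 1331 to 3058 and 2819 CPM (1.16 ± 0.178); its many processed copies in the genome make the read assignment uncertain. These were the genes of this class that rose at least 2-fold. AGRN, a heparan sulfate proteoglycan, and TIMP3, an inhibitor of metalloproteinases, rose by 0.83 and 0.72. In the other direction HSP90AA1 (Gene ID 3320; chromosome 14, 102080742 to 102139749), the inducible cytosolic HSP90, fell from 1692 and 2279.8 to 896 and 1020.1 CPM (-1.05 ± 0.154, adjusted p = 0.000230), and its DMSO replicates lay further apart than its palbociclib replicates. The beta-tubulin TUBB, the fatty acid synthase FASN and the nucleolar protein NPM1 had log2 fold changes of -0.74, -0.72 and -0.52. The call of NPM1 was lost without DMSO replicate 2 (adjusted p = 0.0664), palbociclib replicate 1 (0.0634) or palbociclib replicate 2 (0.0535).

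**Figure D3:**
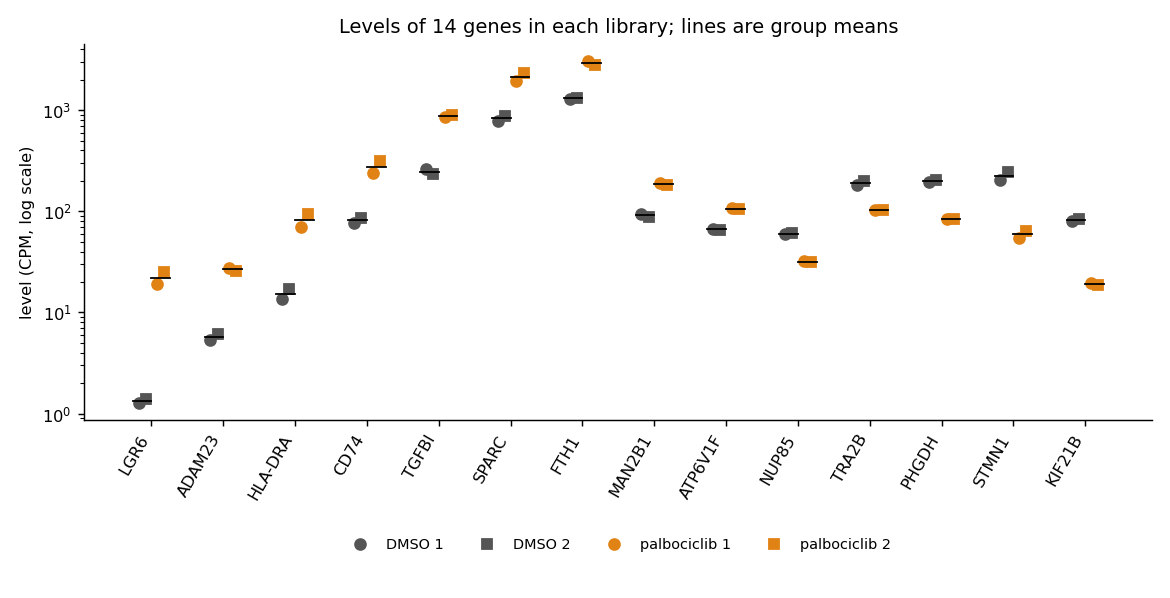
Level (CPM, log scale) of 14 named genes in the 2 DMSO (grey) and 2 palbociclib (orange) libraries, circles for replicate 1, squares for replicate 2 and lines for group means. In each gene the groups do not overlap; the 9 genes from LGR6 to ATP6V1F are higher with palbociclib, and the 5 from NUP85 to KIF21B are lower.

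Protein-coding genes carried most of the calls. The balance of calls among long non-coding genes and pseudogenes depended on the libraries and the test. Small and other non-coding RNAs had more lower than higher calls, also with DESeq2 (8 higher and 12 lower). Of 13860 protein-coding genes tested, 3018 were higher and 3045 lower, and 13389 of them lay outside the cell cycle list, with 3011 higher and 2637 lower calls. Long non-coding RNA genes numbered 1242 tested of 4122 in the tables, with 115 higher, 148 lower and a median log2 fold change of -0.09. Among 462 pseudogenes, nearly all of them of the transcribed kind, 38 were higher and 72 lower (median -0.18), and among 303 small and other non-coding RNAs 9 were higher and 48 lower (median -0.40). The called shares were 43.7%, 21.2%, 23.8% and 18.8% in this order, and non-coding genes had fewer reads: 1098 of the 1242 long non-coding genes were under 10 CPM. In the class of 10 to 100 CPM, where types can be set side by side, 48.5% of protein-coding and 41.8% of long non-coding genes were called.

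The counts of the non-coding types moved with the libraries and the test. Long non-coding genes called were 164 without DMSO replicate 1, 134 and 130 without palbociclib replicate 1 or 2, and 154 with DESeq2. Their excess of lower calls was not stable: without DMSO replicate 1 there were 101 higher and 63 lower, without palbociclib replicate 2 66 and 64, and with DESeq2 79 and 75. For pseudogenes the numbers were 53 and 71 without DMSO replicate 1 or 2, 47 and 46 without palbociclib replicate 1 or 2, and 65 with DESeq2, and without DMSO replicate 1 they split into 28 higher and 25 lower. Small RNAs called were 20 and 31 without DMSO replicate 1 or 2, 26 and 20 without palbociclib replicate 1 or 2, and 20 with DESeq2. Protein-coding calls were 4041 and 3882 without palbociclib replicate 1 or 2.

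The largest changes among long non-coding genes were at low levels. LINC02593 was at 0.836 and 1.25 CPM in DMSO and 2.99 and 5.52 CPM with palbociclib (2.02 ± 0.387, adjusted p = 0.00148). LY6S-AS1, named as antisense to LY6S, went from 1.89 and 1.30 to 6.19 and 6.53 CPM (1.996 ± 0.251), and LINC00869 rose by 1.56. TMPO-AS1 (Gene ID 100128191; chromosome 12, 98512973 to 98516226), named as antisense to the lamina gene TMPO, fell from 8.03 and 9.15 to 1.57 and 2.69 CPM (-2.002 ± 0.251, adjusted p = 7.22e-05). DLEU2, a host gene of microRNAs, fell from 10.8 and 12.5 to 3.20 and 3.03 CPM (-1.91 ± 0.186), as did ALMS1-IT1, an intronic transcript of ALMS1 (-1.95). Antisense transcripts were set beside their partners: of 451 pairs in which a gene with an AS symbol and its namesake were both tested, 81 antisense genes were called, and the partner was called the same way in 36, the other way in 8 and not at all in 37. The strand setting of the counting is not given in the sources used here and 378 of the 451 pairs overlap, so reads of the partners cannot be told apart.

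Among pseudogenes GGT8P, a relative of the gamma-glutamyltransferases, rose from 4.07 and 3.22 to 12.1 and 12.6 CPM (1.77 ± 0.192, adjusted p = 2.50e-05). SSPOP and PKD1L2 rose by 1.41 and 1.53, and the call of PKD1L2 was lost in some fits, where its adjusted p was 0.0807 without DMSO replicate 2 and 0.0814 without palbociclib replicate 1. CCDC144NL had the most reads of the named falls, from 42.02 and 39.04 to 12.9 and 14.5 CPM (-1.56 ± 0.132, adjusted p = 3.37e-06). DPY19L2P1 and TMEM14EP also fell (-1.59 and -1.46). Reads of pseudogenes can come from their parent genes.

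Small RNAs took a larger share of the counts with palbociclib although few of them were called higher. Their share was 4.34% and 4.51% in DMSO and 5.39% and 5.51% with palbociclib. Most of that share came from 5 abundant RNA polymerase III transcripts, none of which was called by edgeR (2 at an unadjusted p under 0.05 and 2 in DESeq2, RN7SL2 and RPPH1). RN7SL2, a signal recognition particle RNA, was at 9999 and 11006 CPM in DMSO and 13977 and 15288 CPM with palbociclib (adjusted p = 0.0859), and RPPH1, the RNA of ribonuclease P, was at 6275 and 5638 against 8338 and 7708 CPM (adjusted p = 0.0806). RN7SK, which holds the elongation factor P-TEFb, was at 8248 and 7939 CPM in DMSO and 8996 and 7843 CPM with palbociclib. MIR3648-1 (Gene ID 100500862; chromosome 21, 8208473 to 8208652) rose from 407 and 636 to 1038 and 1282 CPM (1.15 ± 0.227, adjusted p = 0.00174), but it lies inside the ribosomal RNA gene RNA45SN2 and its reads may be ribosomal, which was not tested. Small nucleolar RNAs, which guide modification of ribosomal RNA, had 3 higher and 28 lower calls (16.7%) of 168 tested and a median of -0.49. MicroRNA genes had 1 higher and 14 lower (16.3%) of 86. Both lower shares were below the 20.8% of all genes. In a family list of 180 small nucleolar RNA genes tested, 29 were lower with edgeR and 9 with DESeq2. Of the snoRNAs named by rule, SNORD116-20 and SNORD116-21 were at 1.62 and 1.25 and at 4.85 and 4.99 CPM in DMSO and at 3.15 and 3.17 and at 8.83 and 8.07 CPM with palbociclib, and SNORD47 fell from 3.79 and 2.91 to 1.47 and 1.73 CPM. The spliceosomal RNA gene RNVU1-6 and the microRNA gene MIR1244-2 had log2 fold changes of -0.98 and -1.22. Calls at these levels were fragile: SNORD116-20 was lost without DMSO replicate 2 (adjusted p = 0.0698) and without palbociclib replicate 1 or 2 (0.0506 and 0.0567), SNORD116-21 without palbociclib replicate 1 (0.0694), SNORD47 without DMSO replicate 1 (0.0844) or palbociclib replicate 1 (0.0881), and RNVU1-6 without DMSO replicate 2 (0.0900) or palbociclib replicate 1 (0.131).

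Gene families outside the cell cycle list were compared by their share of calls beside that of all genes. All genes include the cell cycle list and the non-coding types, which most families leave out. Over protein-coding genes outside the cell cycle list the shares were 22.5% higher and 19.7% lower. Families were not counted against these 2 shares, which leaves the counts below tilted towards rises. Of 75 families with at least 8 genes tested, 47 had a larger share of higher calls than the 19.9% over all genes, 20 had a larger share of lower calls than 20.8%, 9 had both and 17 neither. The 10 families with the highest share of rises were organelle, surface and secreted families, and the 10 with the highest share of falls held nuclear, RNA and biosynthetic families, ubiquitin proteases and tubulins. They are described below by role, with each family's counts and median as a description and no test of the family.

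**Figure D4:**
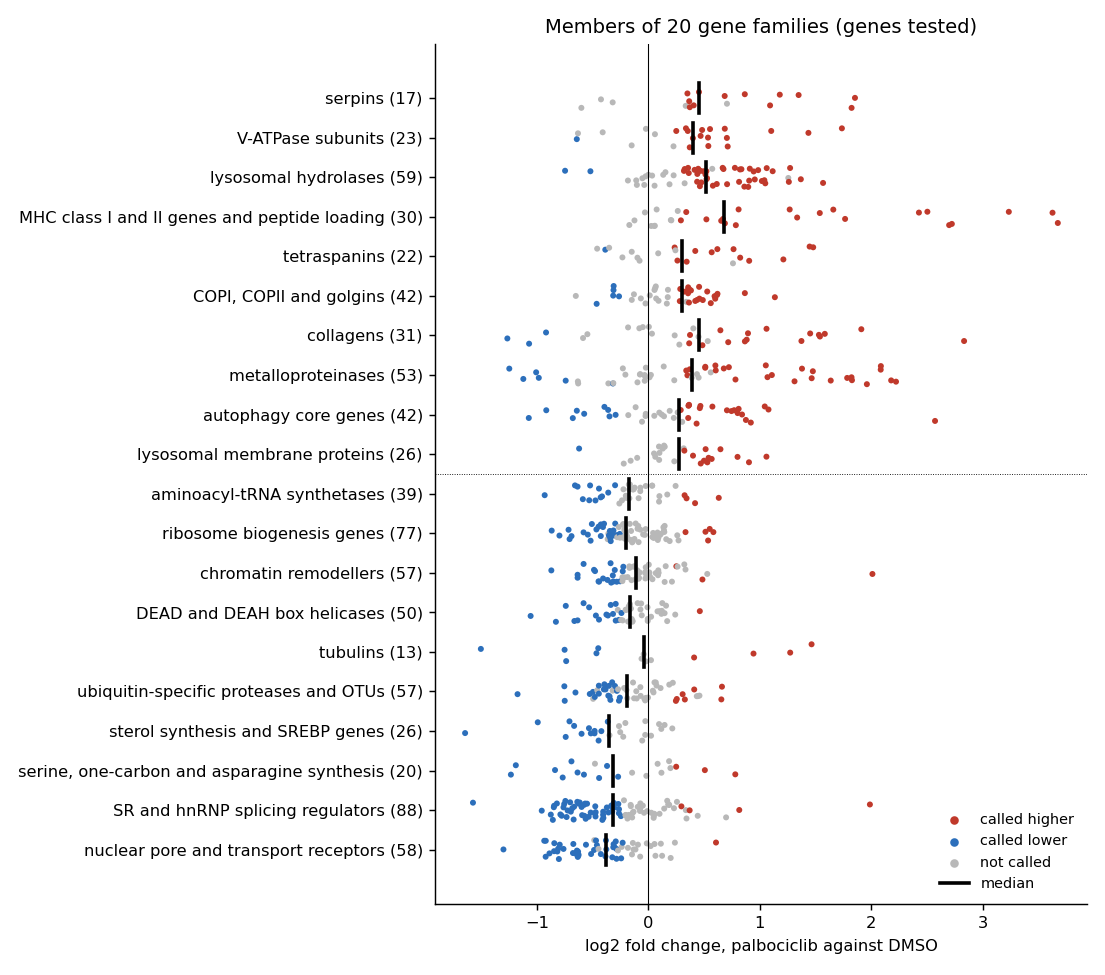
Log2 fold change of palbociclib against DMSO for the tested members of 20 gene families, the 10 with the highest share called higher above the dotted line and the 10 with the highest share called lower below it. Points are genes, coloured by call, black bars are family medians, and the numbers in brackets are genes tested.

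Genes of the lysosome were called higher far more often than lower. Of 59 lysosomal hydrolases tested, 41 were higher and 2 lower, with a median log2 fold change of 0.52. MAN2B1 (Gene ID 4125; chromosome 19, 12646512 to 12666742), the acid alpha-mannosidase, was at 93.3 and 88.8 CPM in DMSO and 192 and 183 CPM with palbociclib (1.04 ± 0.0792, adjusted p = 1.54e-06). SMPD1 (Gene ID 6609; chromosome 11, 6390474 to 6394996), the acid sphingomyelinase, went from 19.8 and 19.7 to 48.8 and 45.9 CPM (1.26 ± 0.105, adjusted p = 2.97e-06). For both enzymes the replicates were close together and the groups far apart. GUSB, the beta-glucuronidase, fell (-0.75 ± 0.103). Leaving out any 1 of the 4 libraries left between 35 and 40 hydrolases higher.

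So were the genes of the proton pump that acidifies lysosomes. Of 23 V-ATPase subunit genes, 16 were higher and 1 lower, with a median of 0.40. ATP6V1F (Gene ID 9296; chromosome 7, 128862856 to 128865847), of the cytosolic V1 sector, was at 66.4 and 65.9 CPM in DMSO and 107 and 106 CPM with palbociclib (0.69 ± 0.0858, adjusted p = 7.14e-05). ATP6V0A4, a membrane subunit of kidney and inner ear pumps, rose from 7.75 and 5.46 to 19.7 and 15.9 CPM (1.44 ± 0.186), and the subunit that fell was ATP6V1E2, a testis form (-0.64). Without palbociclib replicate 2, 10 subunits were higher. Among 26 genes listed as lysosomal membrane proteins 12 were higher and 1 was lower (median 0.28). The lower gene was CLN6, whose protein lies in the endoplasmic reticulum. PLD3, a lysosomal nuclease, went from 56.6 and 52.03 to 113 and 114 CPM (1.06 ± 0.0827), and CLN8, which ferries lysosomal enzymes out of the endoplasmic reticulum, rose by 0.80.

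Autophagy genes were called higher more often than all genes, and lower about as often. Of 42 tested, 20 (47.6%) were higher and 9 (21.4%) lower, beside 19.9% and 20.8% over all genes, with a median of 0.28. The ATG8-family genes GABARAPL1 (20.8 and 19.4 to 41.2 and 43.7 CPM, 1.08 ± 0.103) and MAP1LC3B (57.8 and 61.2 to 113 and 106 CPM, 0.88 ± 0.0905), whose proteins coat the autophagosome, were the rises with the smallest p. The 9 that fell included ATG3, ATG5, ATG7, ATG10, ATG12 and ATG16L2, of the conjugation system that attaches these proteins to lipid or is related to it, with log2 fold changes from -0.29 (ATG7) to -1.07 (ATG16L2); they are named after their values were seen. The lower calls were 4 when DMSO replicate 2 was left out and 5 and 4 without palbociclib replicate 1 or 2.

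Promoters of the lysosomal genes were searched for TCACGTGA, the core of the motif bound by TFEB and related factors; it reads the same on both strands and lies within a longer form of the motif with 1 more base at either end. RefSeq promoter sequences (GRCh38.p14, 250 bases before to 50 after the first listed start) matched 11353 of the 13860 protein-coding genes tested, and 202 of them (1.78%) held the motif. In the 4 families above, 14 of 116 promoters held it: 6 of 41 for hydrolases, 5 of 21 for membrane proteins, 2 of 16 for the V-ATPase and 1 of 38 for autophagy. With the motif, 10 genes were higher and 1 was lower, ATG3, with a median log2 fold change of 0.51; without it 60 of 102 were higher, with a median of 0.37. Outside these families and the cell cycle list 37 of 181 genes with the motif were higher (20.4%) and 44 lower (24.3%). Of the 10651 such genes without the motif, 21.8% were higher and 19.9% lower. The following 100 bases before the start are those of the 4 genes with the largest rises among family members with a match in that stretch, chosen after their values were seen, with the motif in capitals. GAA (acid alpha-glucosidase, chr17:80101481-80101580, plus strand) holds it at 77 and 32 bases before the start, PLBD2 (a phospholipase B-like protein, chr12:113358487-113358586, plus strand) at 25, CTSA (cathepsin A, chr20:45891235-45891334, plus strand) at 26 and ATP6V0D1 (a V0 sector subunit, chr16:67481158-67481257, minus strand) at 60.
GAA: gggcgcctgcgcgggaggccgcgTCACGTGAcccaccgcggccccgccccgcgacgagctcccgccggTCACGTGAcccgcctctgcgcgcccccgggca
PLBD2: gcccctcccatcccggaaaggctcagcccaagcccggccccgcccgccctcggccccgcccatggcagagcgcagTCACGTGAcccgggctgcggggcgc
CTSA: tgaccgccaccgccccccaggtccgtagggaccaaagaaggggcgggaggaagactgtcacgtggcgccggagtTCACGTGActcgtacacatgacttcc
ATP6V0D1: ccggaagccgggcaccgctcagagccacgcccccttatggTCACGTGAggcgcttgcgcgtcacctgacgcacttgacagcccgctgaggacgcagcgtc
These genes rose by 0.91 (GAA), 0.94 (PLBD2), 0.99 (CTSA) and 0.70 (ATP6V0D1) on the log2 scale. A match is a description of the letters and not a bound site.

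Other motifs were searched on both strands in the same promoters. TTTGAA, part of the cell cycle homology region bound by the DREAM complex, was in 10.2% of all promoters, in 127 of 405 (31.4%) of the cell cycle list, and in 15% of the 260 genes outside that list that fell at least 2-fold, against 11.99% of the 584 that rose at least 2-fold. Of the E2F forms, TTTCCCGC was in 2.51% of all promoters, 8.40% of the cell cycle list, 4.62% of the falls outside it and 1.03% of the rises, and TTTGGCGC in 1.08%, 5.68%, 3.08% and 0 of these. TGANTCA, the AP-1 form, was in 4.86% of all promoters, 9.08% of the rises and 5% of the falls. Outside the list, 224 of the 854 genes of any type at least 2-fold higher were kept through palbociclib alone. Of the 508 at least 2-fold lower, 138 were kept through DMSO alone. The limit of 10 counts also acts on the direction of such genes, and their part in these motif shares was not tested. DEK, described above, was outside the cell cycle list. The 100 bases before its start (chr6:18264531-18264630, minus strand) hold TTTGAA, in capitals, 9 bases before the start.
DEK: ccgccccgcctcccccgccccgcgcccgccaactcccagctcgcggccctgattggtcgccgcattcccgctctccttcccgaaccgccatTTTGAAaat

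Genes of the early secretory pathway were called higher more often than lower. Of 42 COPI, COPII and golgin genes 22 were higher and 5 lower, with a median of 0.30. GOLGB1, giantin, a tether of the Golgi, went from 167 and 149.9 to 244 and 241 CPM (0.62 ± 0.0848, adjusted p = 0.000145), and SEC22B, a SNARE of transport between endoplasmic reticulum and Golgi, from 59.4 and 63.4 to 94.8 and 90.5 CPM (0.59 ± 0.0857). The falls were COPG2, TMED5, TMED7, TMED8 and SEC22C, between -0.26 (TMED5) and -0.46 (COPG2), and numbered 1 when DMSO replicate 2 was left out and 2 and 1 without palbociclib replicate 1 or 2. SNAREs and synaptotagmins, which drive vesicle fusion, had 22 higher and 3 lower of 48 (14 higher without palbociclib replicate 2). Solute carriers, the largest transporter group, had 77 higher (30.6%) and 41 lower (16.3%) of 252, with a median of 0.18. Without palbociclib replicate 1, 46 of them were higher, and the lower calls were 21 without DMSO replicate 2 and 20 without palbociclib replicate 2.

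At the cell surface tetraspanins, which organise membrane domains and vesicles, had 12 higher and 1 lower of 22, with a median of 0.30. CD82 (Gene ID 3732; chromosome 11, 44564409 to 44620358), known as a suppressor of metastasis, went from 4.12 and 4.11 to 11.97 and 11 CPM (1.48 ± 0.169, adjusted p = 3.51e-05), and TSPAN10 from 4.35 and 4.83 to 12.7 and 12.4 CPM (1.45 ± 0.167). The tetraspanin that fell was TSPAN5 (-0.39). Without palbociclib replicate 2, 7 tetraspanins were higher. G protein-coupled receptors had 38 higher (29.7%) and 25 lower (19.5%) of 128. Receptor tyrosine kinases had 14 higher (31.1%) and 9 lower (20%) of 45. Both families had a share of lower calls near the 20.8% of all genes, and the share of higher calls over all genes was 19.9%. Their counts shifted with the libraries: receptors called lower were 15 and 15 without DMSO replicate 1 or 2, 16 and 12 without palbociclib replicate 1 or 2 and 16 with DESeq2, and kinases called higher were 9 without DMSO replicate 2 and 6 without palbociclib replicate 1.

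Genes of antigen presentation were called higher in both classes. Of 30 MHC genes and peptide loading factors, 20 were higher and 0 lower in edgeR's test, with a median of 0.68. At an unadjusted p under 0.05, in DESeq2 and in the fits without 1 of the 4 libraries, 0 were lower as well. HLA-DRA (Gene ID 3122; chromosome 6, 32439887 to 32445046), a class II chain, was at 13.5 and 16.998 CPM in DMSO and 69.2 and 95.1 CPM with palbociclib (2.43 ± 0.172, adjusted p = 9.48e-07), and HLA-B, of class I, went from 21.2 and 19.9 to 48.5 and 50.5 CPM (1.27 ± 0.104). HLA genes are near-identical copies and polymorphic, and reads may be split wrongly among them. PTPRC, the pan-leukocyte marker, was at 0.0557 and 0 CPM in DMSO and 0.101 and 0.0960 CPM with palbociclib. LYZ, a myeloid marker, was called higher along with these genes, at the levels given above, and the part of blood cells was not tested.

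Secreted and matrix families had more higher than lower calls. Serpins, inhibitors of serine proteases, had 12 higher and 0 lower of 17 in the edgeR test, with a median of 0.45. In DESeq2 and at an unadjusted p under 0.05 also 0 were lower, and without DMSO replicate 2 there was 1. SERPINB7 went from 8.36 and 8.89 to 18.7 and 20.4 CPM (1.18 ± 0.128, adjusted p = 2.46e-05), and SERPINA1, alpha-1 antitrypsin, from 3.18 and 4.16 to 9.03 and 9.70 CPM (1.35 ± 0.207). Without palbociclib replicate 2, 7 serpins were higher. Of 53 metalloproteinases and their inhibitors 26 were higher and 6 lower (median 0.39). ADAM19 (Gene ID 8728; chromosome 5, 157477304 to 157575775), a sheddase of growth factor precursors, was at 188 and 170.1 CPM in DMSO and 488 and 499 CPM with palbociclib (1.47 ± 0.0896, adjusted p = 3.26e-07), and ADAM23, which lacks protease activity and binds integrins, went from 5.35 and 6.08 to 27.6 and 25.8 CPM (2.22 ± 0.140). Falls in this family were 2 and 3 without DMSO replicate 1 or 2 and 1 without either palbociclib replicate.

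Collagens moved in both directions, with more rises than falls. Of 31 tested, 16 were higher and 3 lower, with a median of 0.45. COL17A1, a transmembrane collagen of hemidesmosomes, went from 7.47 and 7.12 to 20.8 and 22.96 CPM (1.58 ± 0.141, adjusted p = 5.31e-06), and COL6A3, a chain of microfibrillar collagen VI, from 42.7 and 44.4 to 80.1 and 80.6 CPM (0.88 ± 0.0896). The collagens that fell were COL1A1, a chain of fibrillar collagen I (-1.07 ± 0.141), COL6A2 (-0.92) and COL6A6 (-1.26 ± 0.377), so that chains of collagen VI moved in both directions. COL1A1 is also 1 of the fibroblast and endothelial markers, of which 8 were tested, 3 higher and 4 lower, with sums of 51.9 and 42.8 CPM in DMSO and 42.8 and 36.4 CPM with palbociclib; their part in the collagen counts was not tested.

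Nuclear transport genes and splicing regulators were called lower far more often than higher. Of 58 nuclear pore and transport receptor genes 38 were lower and 1, IPO13, was higher (0.61 ± 0.0829), with a median of -0.38. NUP210 (Gene ID 23225; chromosome 3, 13316235 to 13420322), a membrane-anchored pore protein, fell from 64.98 and 50.7 to 25.4 and 21.6 CPM (-1.30 ± 0.130, adjusted p = 1.29e-05), and NUP85, of the Y-shaped scaffold, from 59.97 and 60.5 to 32.2 and 31.5 CPM (-0.92 ± 0.0904). Leaving out any 1 of the 4 libraries left 27 to 34 of these genes lower. Of 88 SR and hnRNP splicing regulators 50 were lower and 4 higher, with a median of -0.32. TRA2B (Gene ID 6434; chromosome 3, 185914558 to 185938014), an SR-like activator of exon inclusion, fell from 183 and 197 to 103 and 104 CPM (-0.87 ± 0.0821, adjusted p = 7.76e-06), and SRSF10 from 143 and 141 to 83.3 and 77.5 CPM (-0.82 ± 0.0793). The 4 that rose were RBM47, CLK3, RBM20 and CELF6. Higher calls were 2 with DESeq2, and they also depended on single libraries.

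Most helicases, remodellers and ribosome biogenesis genes were not called, and the calls were mostly lower. DEAD and DEAH box helicases had 17 lower and 1 higher, DDX49, of 50 (median -0.17); DDX11, a helicase of sister chromatid cohesion, fell from 88.3 and 84.6 to 39.3 and 43.9 CPM (-1.06 ± 0.100) and DDX39A, of mRNA export, also fell (-0.83). Chromatin remodellers had 19 lower and 3 higher, CHD3, BAZ2B and INO80B, of 57 (median -0.11). CHD1, which spaces nucleosomes in transcribed genes, fell from 119 and 119 to 76.003 and 76.8 CPM (-0.63 ± 0.0765), and ACTL6A, an actin-related subunit, also fell (-0.87). Ribosome biogenesis genes had 25 lower and 5 higher, RRP12, NOP9, NOP10, NOL3 and NOL6, of 77 (median -0.20). UTP20, of the small subunit processome, fell from 172 and 178 to 97.6 and 94.1 CPM (-0.87 ± 0.0826) and so did FBL, fibrillarin, which methylates ribosomal RNA (-0.71). These 3 shares of falls, 34%, 33.3% and 32.5%, stood above the 20.8% of all genes but rested on few libraries: helicases called lower were 7 when DMSO replicate 2 was left out and 8 and 10 without palbociclib replicate 1 or 2, remodellers 9 without DMSO replicate 2 and 9 without palbociclib replicate 1, and biogenesis genes 11, 13 and 16 without DMSO replicate 2, palbociclib replicate 1 and palbociclib replicate 2.

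Among genes for serine, sterols and charged tRNAs lower calls outnumbered higher ones. Of 20 genes listed for serine, one-carbon and asparagine synthesis 10 were lower and 3 were higher (median -0.32). Among those higher were ALDH18A1 and PYCR3, genes of proline synthesis that the list also holds. PHGDH (Gene ID 26227; chromosome 1, 119711934 to 119744215), the first enzyme of serine synthesis, was at 193 and 203 CPM in DMSO and 84.02 and 84.5 CPM with palbociclib (-1.23 ± 0.0797, adjusted p = 4.69e-07), and ASNS, asparagine synthetase, fell from 54.6 and 65.9 to 24.7 and 28.2 CPM (-1.19 ± 0.117). Of 26 sterol synthesis and SREBP genes 13 were lower and 0 higher in edgeR's test, with a median of -0.36. In DESeq2, at an unadjusted p under 0.05 and in the fits without 1 of the 4 libraries also 0 were higher. INSIG1 (Gene ID 3638; chromosome 7, 155297878 to 155310235), the sterol-regulated anchor of SCAP, fell from 79.3 and 82.03 to 29.8 and 21.9 CPM (-1.64 ± 0.132, adjusted p = 2.26e-06). Aminoacyl-tRNA synthetases had 12 lower and 4 higher, QARS1, MARS2, CARS2 and HARS1, of 39 (median -0.17; 7 lower without palbociclib replicate 2). AARS1, the cytosolic alanyl enzyme, had a log2 fold change of -0.63.

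In the ubiquitin proteases and tubulins the falls were mixed with rises. Ubiquitin-specific and OTU proteases had 22 lower and 7 higher of 57 (median -0.19). USP37, which removes ubiquitin from cyclin A, fell from 43.8 and 46.99 to 18.9 and 21.4 CPM (-1.17 ± 0.107, adjusted p = 6.19e-06), and USP13 also fell (-0.75). The lower calls were 9 when DMSO replicate 2 was left out and 13 and 12 without palbociclib replicate 1 or 2, and the higher calls 4 and 4 without DMSO replicate 1 or 2 and 4 and 2 without palbociclib replicate 1 or 2. Of 13 tubulin genes outside the cell cycle list 5 were lower (TUBB, TUBB6, TUBE1, TUBD1 and TUBA3D) and 4 higher (TUBA1A, TUBB2A, TUBB3 and TUBB4A), with a median of -0.04. TUBE1, the epsilon tubulin of centrioles, fell from 14.9 and 14.04 to 8.07 and 9.13 CPM (-0.75 ± 0.143), whereas TUBB2A rose from 9.03 and 9.82 to 24.2 and 27.9 CPM. Tubulin copies are similar in sequence, and the lower calls were 3 without DMSO replicate 1, 3 without palbociclib replicate 1 and 3 with DESeq2.

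Other families are given by counts. Numbered zinc finger genes, a large family of DNA-binding proteins, had 63 higher and 65 lower of 472 and a median of 0.01; their higher calls were 29 when DMSO replicate 2 was left out and 25 and 34 without palbociclib replicate 1 or 2, and their lower calls 33 to 35 without any 1 of the 4 libraries. Nuclear-encoded oxidative phosphorylation subunits had 24 higher and 1 lower, NDUFA5, of 80, but 6 were higher without DMSO replicate 1 and 2 without palbociclib replicate 2. Cytosolic ribosomal proteins had 9 higher and 0 lower of 82 in edgeR's test (5 without DMSO replicate 1 and 3 without palbociclib replicate 2), with 21 higher under scaling by library totals. At an unadjusted p under 0.05 2 of these 82 genes were lower, and DESeq2 called 0 lower. Interferon-stimulated genes had 24 higher and 7 lower of 59 (4 lower without palbociclib replicate 1), and glutathione and NRF2 target genes 22 and 3 of 54, the falls being GCLM, GSR and PRDX3 (0 lower without DMSO replicate 2). Glycolysis genes had 2 higher, ALDOC and PFKFB4, and 3 lower, ENO1, ENO2 and SLC16A3, of 26 (1 lower without DMSO replicate 2 and 0 without palbociclib replicate 2).

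Short genes were called higher more often than long genes. Span is the distance from the start to the end of the gene in the RefSeq table, and only the 13389 protein-coding genes outside the cell cycle list were used. Of 1271 genes under 5 kb, 28.2% were higher and 8.89% lower (median log2 fold change 0.16). From 5 to 20 kb the shares were 25.8% and 14.6%, from 20 to 50 kb 21.4% and 22.4%, from 50 to 100 kb 17.99% and 25.8%, and from 100 kb upward 20.2% and 23.3%, with medians of 0.09, -0.01, -0.06 and -0.03. A smaller trend of the same kind lay between replicates, taken as the median log2 difference of replicate 2 from replicate 1 (pseudocount 0.5 CPM). For genes under 5 kb it was 0.04 in DMSO, 0.04 with palbociclib and 0.09 with GSK3326595. For genes of 100 kb or more it was -0.03, -0.03 and 0.01. In the same measure palbociclib differed from DMSO by 0.15 and -0.03 in these classes. The part of the trend between replicates in the result was not tested. Over the 14 alternatives of the fit, the median of genes under 5 kb stayed between 0.14 and 0.23 and that of genes from 50 to 100 kb between -0.08 and -0.03.

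Calls were also counted by chromosome, beside 22.5% higher and 19.7% lower over all 13389 protein-coding genes outside the cell cycle list. On chromosome 19, 24.4% of 1003 such genes were higher and 11.6% lower, and on chromosome 22 the shares were 27.6% and 14.7% of 312. Chromosome X had 27.0% and 15.7% of 492. Chromosome 18 stood at the other end, with 11.8% higher and 24.7% lower of 186, and chromosome 13 had the lowest median, -0.13. Of 13366 pairs of neighbouring genes in this set, 1484 were called the same way and 1010 opposite ways. The numbers of pairs and runs to be expected from the shares over all 13389 genes alone were not computed. The longest runs of neighbours called the same way had 7 genes each. On chromosome 16 (29820394 to 29992261, GRCh38) MVP, CDIPT, SEZ6L2, ASPHD1, KCTD13, TMEM219 and TAOK2 were higher, with a median of 0.75, and on chromosome 19 (6436081 to 6737580) SLC25A23, TUBB4A, TNFSF9, CD70, TNFSF14, C3 and GPR108, with a median of 0.76. On chromosome 18 (158557 to 2805017) USP14, THOC1, COLEC12, ENOSF1, YES1, METTL4 and SMCHD1 were lower, with a median of -0.75. The chromosome 19 run holds 3 neighbouring ligands of the TNF superfamily and the complement gene C3.

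Palbociclib was also set directly against the PRMT5 inhibitor. In the direct contrast of palbociclib with GSK3326595, calls numbered 5715 of the 16050 genes (35.6%), with 2710 (16.9%) higher and 3005 (18.7%) lower after palbociclib. This contrast uses the same palbociclib libraries as the one with DMSO, so only levels and differences of single genes are given. LGR6 was at 2.57 and 2.45 CPM with GSK3326595, a difference of 3.13 (log2) in favour of palbociclib, and KIF21B was at 66.8 and 59.5 CPM, a difference of -1.72. MAN2B1 was at 85.3 and 87.5 CPM with GSK3326595 and 1.12 higher with palbociclib. CD82 and SERPINB7 had log2 differences of 0.27 and 0.14 between the inhibitors, which were not called (adjusted p = 0.191 and 0.395). STMN3 was at 12.04 and 12.2 CPM with GSK3326595 and 5.96 and 6.97 CPM in DMSO, and the log2 difference of palbociclib from GSK3326595 was -3.68. Without palbociclib replicate 1 or 2 the contrast had 3385 and 3466 calls.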

How the data were processed

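Total RNA-seq of A375 cells was analysed: per the labels' protocols, cells grew in RPMI medium and RNA was column-purified, depleted of ribosomal RNA and made into TruSeq v2 libraries. For each library the authors deposited raw counts per NCBI Gene ID, with no scaling. Per the submitters' processing notes, the build was hg38 and the tools were featureCounts 1.6.2, HISAT2, cutadapt 1.7, limma and CASAVA 1.8.2. The sources used here do not give the annotation, the strand setting or the treatment of multi-mapping reads, so overlapping and near-identical genes are uncertain.

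Counts were tested with edgeR 4.0.16 (R 4.3.3): TMM, 1 coefficient per group, all 6 libraries (3 residual degrees of freedom), quasi-likelihood F test, two-sided, Benjamini-Hochberg over 16050 genes. The biological coefficient of variation was 0.0836. SE is the size of the log2 fold change over the root of F. The test was tested on simulated data. DESeq2 1.42.0, other scalings, filters and samples and a replicate block were alternatives. Symbols, types, positions and promoters came from RefSeq (GRCh38.p14); 27745 IDs matched and 650 did not (181 of them tested, under their IDs).

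Named genes were those called, at 2 CPM or more and with both palbociclib libraries beyond both DMSO libraries: the 8 largest protein-coding changes each way outside the cell cycle list, the 4 largest each way among such genes from 100 CPM and from 1000 CPM, the 3 largest each way per non-coding type, and the 2 with the smallest p in each of 20 families, plus called members where they were 5 or fewer. Some of these genes are not reported here. The lists and genes were chosen with earlier results of these data known. Family lists can share genes. Mean CPM of 4 libraries set the read-count class. With 2 libraries per group, a single library decides many calls.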

Additional observations from a re-analysis of the deposited data

How the results depend on the processing

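Signs of called genes did not reverse under any of the 14 alternatives, and the median log2 fold change of all genes moved by 0.03 at most. Leaving out each of the 6 libraries in turn gave 4107 to 7239 genes called (2067 to 3555 higher, 2040 to 3684 lower), 133 to 356 under 1 CPM, 713 to 1518 from 1 to 10 CPM, 2473 to 4086 from 10 to 100 CPM, 11 to 24 from 1000 CPM, 3882 to 6649 protein-coding genes, 130 to 332 long non-coding genes, 46 to 133 pseudogenes, 20 to 76 small RNAs and 3385 to 5593 against GSK3326595. DESeq2 called 78 genes under 1 CPM, 154 long non-coding genes, 65 pseudogenes and 20 small RNAs, and a filter on a mean of 1 CPM left 0 genes in the class below it. With the replicate number as a block 8742 genes were called, 33 from 1000 CPM, 400 long non-coding genes, 180 pseudogenes, 100 small RNAs and 40 cytosolic ribosomal protein genes higher. Deviations of same-numbered libraries correlated at 0.237 between DMSO and palbociclib, 0.405 between DMSO and GSK3326595 and 0.198 between the inhibitors, but with 2 numbers the libraries share only a number, and no paired result is used. The cause of these moves was not tested, except that leaving out a library or filtering also removes samples or genes. The span classes under the 14 alternatives were computed after seeing the data. Depth limits the low classes: under 1 CPM no change below 2-fold was called.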
